A study of Mus musculus with 6 samples.

Results

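The cytosolic ribosomal protein genes were taken from the deposited gene table as the entries whose symbol starts with Rpl, Rps or Rplp followed by a digit, together with Rpsa, without the Rps6k kinases, Rps19bp1 and symbols that carry -ps. The rule uses no measured value, and it found 81 of the 13170 listed genes, 48 of the large (60S) subunit and 33 of the small (40S) subunit. In the GENCODE annotation of the mouse build GRCm38, 85 protein-coding genes match the rule, and the other 4 (Rpl10l, Rpl36al, Rpl39l and Rpl3l) were not analysed here. Poly(A) RNA was sequenced from the brain of C57 mice, adult males by the title of the series, with 3 libraries from mice of high sexual motivation and 3 from mice of low sexual motivation, and no other genotype, age, treatment or time is named. The tissue is named as medial amygdala in the title and abbreviated as PrL in the extraction protocol. The sources used here do not give how motivation was scored or whether a library holds 1 animal or a pool. P-values therefore measure the spread between these libraries alone, and that spread may be technical.

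A cytosolic ribosome joins ribosomal RNA with many proteins, most of them needed in the same amount per particle. Transcripts of these proteins are short, abundant and housekeeping in kind. Most begin with a stretch of pyrimidines at the cap, the terminal oligopyrimidine or TOP motif, through which the kinase complex mTORC1 and the RNA-binding protein LARP1 set their translation and stability. In neurons they are also carried into dendrites and axons, where protein is made close to synapses.

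Promoter sequences from RefSeq (GRCm38.p6, from 250 bases before to 50 bases after an annotated start) matched 61 of the 81 genes, with 72 starts. A run of at least 8 unbroken C or T letters on the gene's strand, within 50 bases of the start on either side, was present at 56 of the 72 starts (77.8%), against 35.7% of the 32851 starts of all genes. Such runs are printed for 6 members described further on, from 30 bases before to 15 bases after the start, with the longest run in capitals.
Rpl28, chr7:4792935-4792979, plus strand: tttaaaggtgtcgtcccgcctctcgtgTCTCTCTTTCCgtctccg
Rpl35a, chr16:33056452-33056496, plus strand: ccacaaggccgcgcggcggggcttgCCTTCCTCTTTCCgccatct
Rps6, chr4:86857353-86857397, minus strand: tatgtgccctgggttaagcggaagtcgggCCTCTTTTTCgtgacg
Rplp2, chr7:141447621-141447665, plus strand: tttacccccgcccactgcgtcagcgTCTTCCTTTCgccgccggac
Rpl15, chr14:18270972-18271016, minus strand: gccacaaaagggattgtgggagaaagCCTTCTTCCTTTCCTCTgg
Rpl7a, chr2:26910777-26910821, plus strand: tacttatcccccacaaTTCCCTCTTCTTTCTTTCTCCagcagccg
The run spans the annotated start in all 6 windows, which show only starts with such a run. The windows include genes whose means were higher in the high group (Rpl28, Rpl35a, Rps6, Rplp2) and genes whose means were lower (Rpl15, Rpl7a). Within 10 bases of the start, an unbroken run of at least 8 was at 21 of 72 starts (29.2%, against 7.43% of all starts). In the printed range the longest run was 4 letters for Rpl41, 5 for Rpl26, and 4 and 5 at other annotated starts of Rpl35a. Searched on both strands over the whole 300 bases, the ETS-type core CCGGAAG was present at 26 of 72 starts (36.1%, against 8.86% of all starts) and the YY1-type core AAGATGG at 12 (16.7% against 6.34%). The TATA box TATAAA was at 7 starts (9.72% against 13.6%), and the E-box CACGTG at 8 (11.1% against 7.15%). These 4 letter strings do not contain one another, and a match is a description of the sequence only.

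Levels are FPKM, which divide fragments by transcript length and by the mapped total, so they can be set side by side between genes. The members' mean over the 6 libraries had a median of 53.5 FPKM, against 6.27 over all listed genes, and 77 of the 81 were above 10 FPKM and 17 above 100. The highest were Rplp1 (554.7), a protein of the acidic stalk, and Rps15 (447.0), a protein of the small subunit near the decoding centre. The lowest was Rpl24, at 0.340, 0.817 and 0.629 FPKM in the high group against 0.496, 0.327 and 0.428 in the low group. Rpl24 encodes a large-subunit protein, yet its listed level lay under that of every other member. It was the single member under the expression filter, a mean of at least 1 FPKM, so 80 members were tested.

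Most ribosomal protein genes had a slightly higher mean in the high group. On the log2(FPKM + 1) scale, 69 of the 80 tested members were higher and 11 lower, with a median log2 difference (high minus low) of 0.08, where 50.1% of 12026 tested genes were higher and the median was 0.00018. The size was small throughout: 26 of 80 members had a log2 difference of at least 0.1, against 18.9% of all tested genes, and the median standard error of a member's difference was 0.0879. No member passed, and no gene of any kind did: limma called 0 genes at an adjusted p under 0.05 (0% in each direction), and the smallest adjusted p of a member was 0.557. At an unadjusted p under 0.05, 2 members were higher (background 4.12%) and 1 was lower (background 4.27%).

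**Figure D1:**
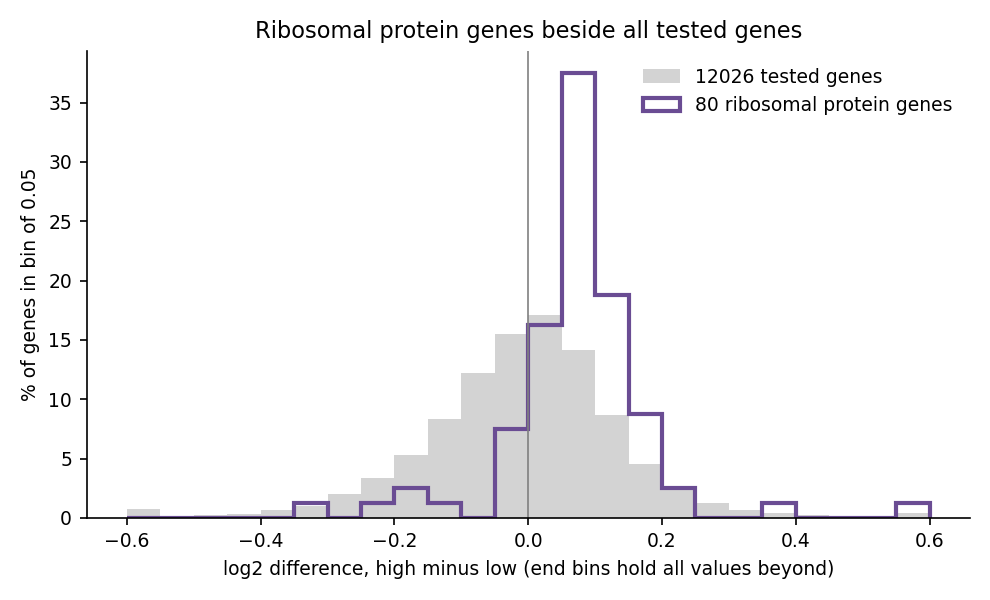
Histogram of the log2 difference between the high and low groups on the log2(FPKM + 1) scale, in bins of 0.05, for all 12026 tested genes (grey) and for the 80 ribosomal protein genes (purple outline), each as a percentage of its set. The ribosomal protein genes are centred at 0.08 and all genes near 0.

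Both subunits shared this shift. Of 47 tested large-subunit genes 40 were higher (median 0.07), and of 33 small-subunit genes 29 were higher (median 0.09). Summed over the 81 members, FPKM was 6258, 6697 and 6899 in high libraries 1, 2 and 3, and 5845, 6708 and 6070 in low libraries 1, 2 and 3. As a share of all listed FPKM this was 2.50%, 2.71% and 2.73% in the high group against 2.35%, 2.71% and 2.39% in the low group, or 2.64% ± 0.123 against 2.48% ± 0.193 (SD, n = 3 each). The groups overlapped: low library 2 lay among the high libraries, and high library 1 lay below it. In tissue RNA, more cells rich in ribosomal protein transcripts and more such RNA per cell cannot be told apart.

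**Figure D2:**
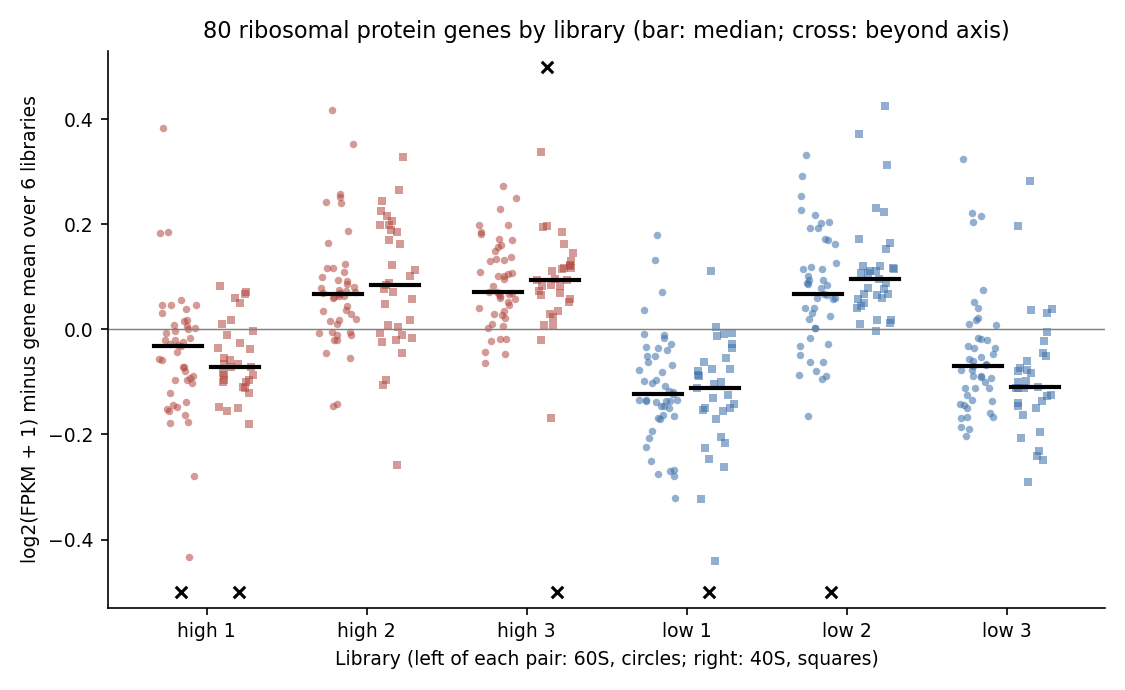
Each tested ribosomal protein gene in each library, as log2(FPKM + 1) minus the mean of that gene over the 6 libraries, with 60S genes as circles, 40S genes as squares, high libraries in red, low libraries in blue and the median of each set as a bar; 6 points beyond 0.5 are drawn as crosses at the edge. The medians lie above 0 in high libraries 2 and 3 and low library 2, and below 0 in high library 1 and low libraries 1 and 3.

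The variation among members was shared across libraries more than between groups. A library's median deviation from the 6-library mean was -0.06, 0.07 and 0.08 in high libraries 1, 2 and 3, and -0.12, 0.08 and -0.09 in low libraries 1, 2 and 3. Low library 1 held the lowest value of 37 members and low library 3 of 25, while high library 3 held the highest of 28, high library 2 of 24 and low library 2 of 19. Within the low group, library 2 was above both others in 63 of 81 members, and within the high group, library 1 was below both others in 57. The pooled SD of these medians within groups was 0.0947, which is more than the difference of 0.0741 between the groups' mean deviations. With Rps27rt left out, the first principal component held 53.0% of the members' variance, with scores of -0.08, 0.11 and 0.07 in the high group against -0.13, 0.13 and -0.10 in the low group. Low library 2 had the highest score and high library 1 lay among the low libraries, so the scores overlapped between the groups. Mitochondrial ribosomal protein genes had median deviations of -0.04, 0.07 and 0.04 in the high group against -0.03, -0.0016 and -0.0094 in the low group, with the sign of the cytosolic genes in every library but low library 2.

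Several library measures moved with these levels. Relative depth, read from the steps between low FPKM values with high library 1 set to 1, was 1.33 in high library 2, 1.2503 in low library 2 and 1.08 in high library 3, the 3 libraries with the highest ribosomal protein share, and 0.960 and 0.954 in low libraries 1 and 3, which had the lowest. The summed FPKM of 16 choroid plexus markers, all 16 of them listed, was 1473 and 4612 in low libraries 1 and 3 and between 58.0 and 135.2 in the other 4 libraries, and Ttr, the most abundant of them, was at 1290.1 and 4016.2 there and between 33.5 and 102.3 elsewhere. With low libraries 1 and 3 left out, 25 of 80 members were higher and the median log2 difference was -0.04, so the direction turned. That fit has a single low library, whose variance is taken to equal that of the high libraries, and was chosen after seeing the data. The summed FPKM of 10 astrocyte markers split the libraries as the ribosomal protein share did. It was 691.7 and 770.7 in high libraries 2 and 3 and 691.2 in low library 2. It was 594.2 in high library 1 and 602.7 and 645.9 in low libraries 1 and 3. Single genes of this list did not all split in this way. Aldh1l1 and Slc1a3 did, but Aldoc, the most abundant, had 273.6 in low library 2 and 283.6 in low library 3. Between the groups, 4 of the 10 astrocyte genes were higher and 6 lower. The sum of 10 microglia markers split the libraries as the astrocyte sum did. It was 182.9 and 180.1 in high libraries 2 and 3 and 180.3 in low library 2. It was 176.0 in high library 1 and 161.8 and 173.5 in low libraries 1 and 3. The sum of 5 blood markers split them in reverse. It was 114.0 and 121.1 in high libraries 2 and 3 and 132.8 in low library 2. It was 186.0 in high library 1 and 253.2 and 225.3 in low libraries 1 and 3. In the marker lists other than astrocytes most genes lay to one side between the groups, while most of the sums overlapped. Neuronal markers were higher in 9 of 14 genes (median log2 difference 0.079) and endothelial markers in 8 of 10 (0.106). Microglia markers were higher in 6 of 10 genes (0.0073) and medial amygdala markers in 5 of 8 tested genes (0.051). Cortical excitatory markers were lower in 7 of 10 tested genes (-0.064). Oligodendrocyte markers were higher in 10 of 10 genes (median log2 difference 0.19; sums of 383.5 to 453.5 FPKM in the high group and 349.1 to 386.9 in the low group). Meningeal markers were higher in 7 of 7 tested genes (sums of 13.2 to 69.1 and of 10.1 to 20.4). Ependymal markers were lower in 7 of 7 tested genes (sums of 12.8 to 14.9 and of 22.5 to 42.5) and blood markers in 5 of 5 (sums of 114.0 to 186.0 and of 132.8 to 253.2). No listed gene is at 0. The part of depth and of these cell types in the difference was not tested. The median of the ribosomal protein genes was 0.04 without low library 1, 0.05 without low library 3, 0.05 without high library 2 and 0.14 without low library 2.

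**Figure D3:**
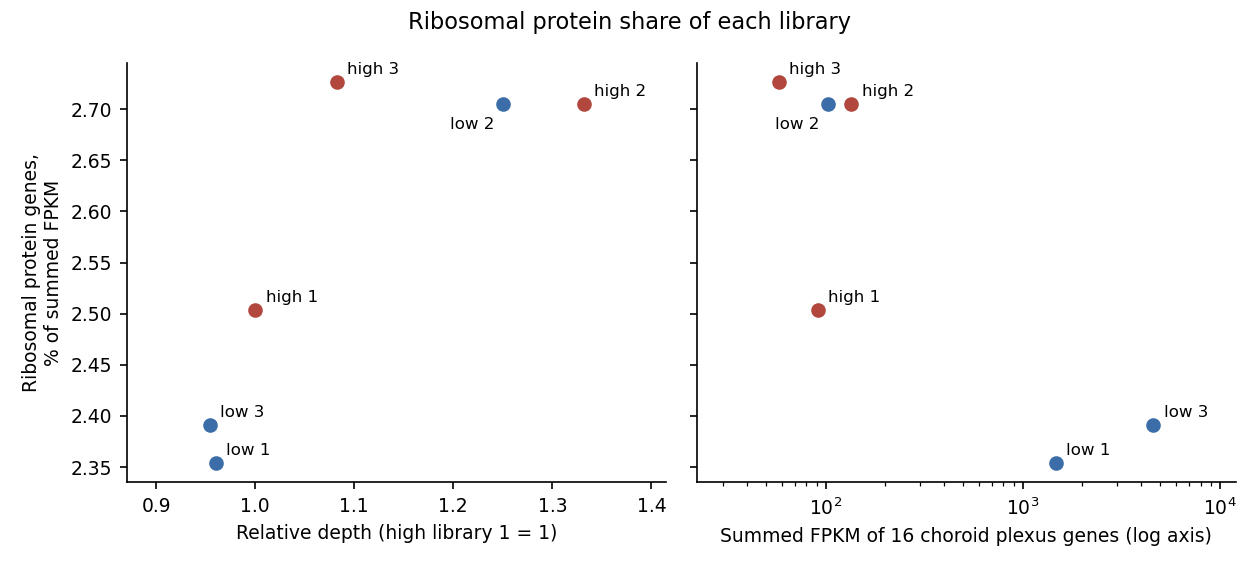
Share of summed FPKM held by the 81 ribosomal protein genes in each library (percent) against relative depth (left) and against the summed FPKM of 16 choroid plexus markers on a log axis (right), with high libraries in red and low libraries in blue. High libraries 2 and 3 and low library 2 lie between 2.71% and 2.73%, and the other 3 libraries lie between 2.35% and 2.50%.

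In 6 members the 3 high libraries did not overlap the 3 low libraries, 5 higher (background 7.33%) and 1 lower (background 7.61%). The higher members included Rpl41, Rpl10a, Rps15 and Rps6, and the lower member was Rpl15. As shares of 80 members neither count is above its background. The count depended on single libraries: it rose to 35 when low library 2 was left out, to 20 for high library 1, to 11 for low library 3 and to 10 for high library 2. With fewer libraries, separate groups are easier to reach by construction. The share of all tested genes with separate groups was counted with all 6 libraries only. The counts with a library left out therefore have no background, and whether the rise is particular to ribosomal protein genes was not tested.

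**Figure D4:**
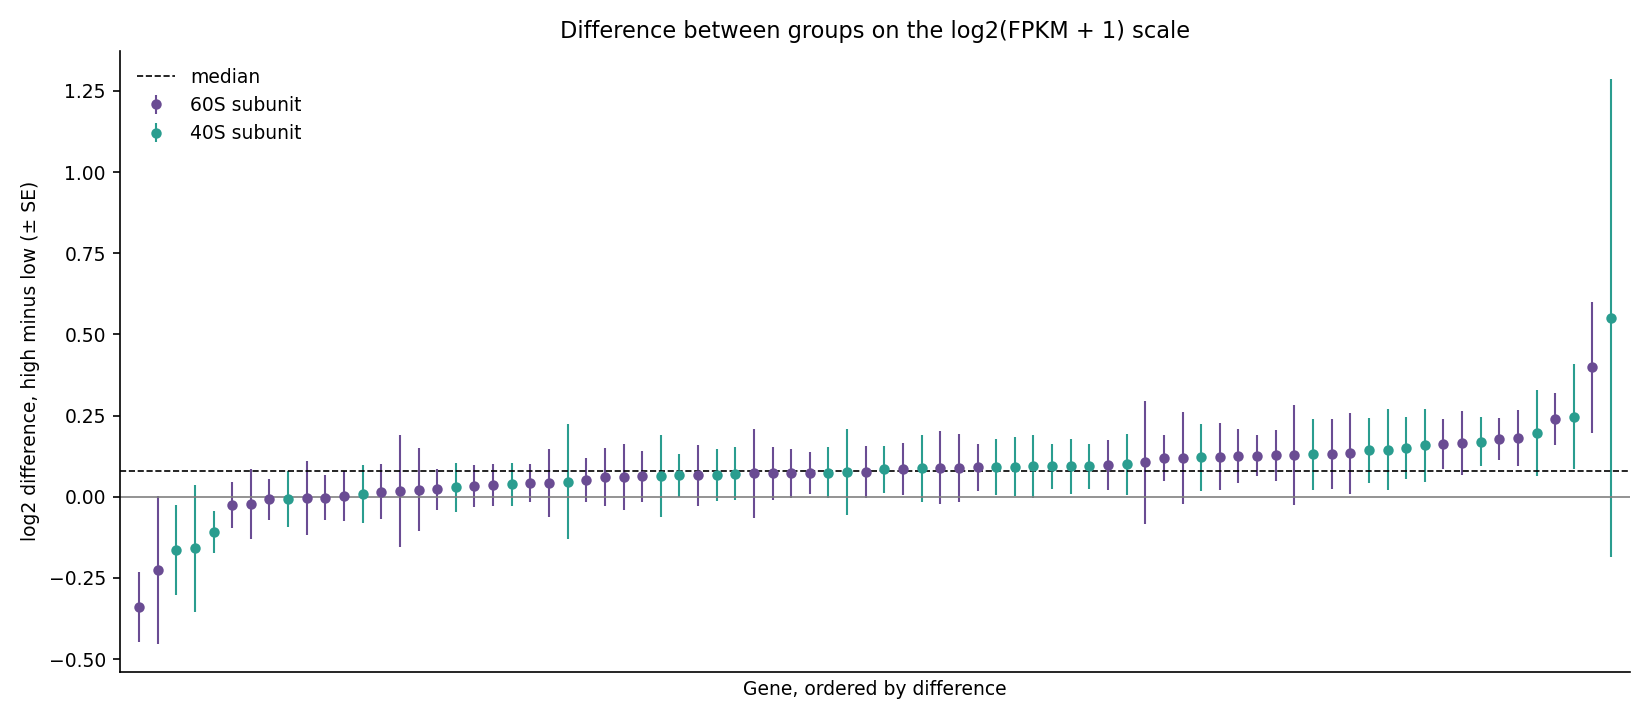
Log2 difference between the groups (high minus low, ± SE from limma) for the 80 tested ribosomal protein genes in order of size, with 60S genes in purple and 40S genes in green. The dashed line marks the median of 0.08. Rps27rt stands at one end at 0.55 with an SE of 0.736, and Rpl15 at the other at -0.34 with an SE of 0.109.

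Among large-subunit genes, Rpl41 had the smallest p of those that were higher. It encodes the shortest ribosomal protein, a small basic peptide, and lies on chromosome 10 from 128548114 to 128549305 (GRCm38, minus strand). Its level was 265.3, 235.8 and 260.8 in the high group against 199.7, 220.8 and 224.2 in the low group. Every high library was above every low library, by a log2 difference of 0.24 (SE 0.0794; limma adjusted p = 0.564), and the exact permutation p of the means was 0.1, the smallest that 3 against 3 allows. Rpl10a, a protein of the mobile L1 stalk where the emptied tRNA leaves, had 53.5, 52.5 and 55.5 FPKM against 46.7, 49.2 and 51.8. Its groups were separate by a margin smaller than the spread within either group, with a log2 difference of 0.13 (SE 0.0626; limma adjusted p = 0.605).

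Further large-subunit genes had higher means with overlapping libraries. Rpl37 had 78.4, 87.6 and 92.8 FPKM in the high group against 72.1, 83.1 and 72.7 in the low group. Rpl35a, whose pyrimidine run at an annotated start is shown above, had 17.7, 18.7 and 20.1 against 16.04, 18.3 and 15.98. In both genes low library 2 lay above high library 1, and the log2 differences were 0.18 and 0.16 (limma adjusted p = 0.605 for each). Rpl28 had 68.4, 69.9 and 75.6 FPKM against 59.5, 65.8 and 70.7, and Rpl37a had 69.4, 71.3 and 79.99 against 69.6, 65.9 and 67.1. Rpl26, a protein near the exit of the peptide tunnel, had 133.8, 160.4 and 138.6 FPKM against 120.6, 144.2 and 120.7. The log2 differences of these 3 genes were 0.13, 0.12 and 0.17, with overlapping libraries in each. Rpl23a, at the tunnel exit where the signal recognition particle docks, had the largest log2 difference among tested large-subunit genes, 0.40 (SE 0.202; limma adjusted p = 0.606). Its level was 64.0, 51.6 and 53.8 against 44.0, 30.2 and 57.1, so low library 3 exceeded 2 of the high libraries, and low library 2 lay far below the rest. Without low library 2 the log2 difference was 0.16, and without low library 3 it was 0.61.

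Genes for proteins at the core of peptide synthesis and of 5S RNA assembly overlapped between the groups. Rpl3, which reaches the peptidyl transferase centre, had 141.4, 137.7 and 150.01 FPKM in the high group against 146.8, 149.1 and 134.3 in the low group, with a log2 difference of -0.0031. Rpl5, which carries 5S RNA into the particle with Rpl11 and with it restrains Mdm2, had 37.1, 38.7 and 41.0 against 38.7, 40.7 and 38.0. Its partner Rpl11 had 45.4, 50.5 and 49.9 FPKM against 43.0, 49.3 and 41.3. The log2 differences of the pair were -0.0078 for Rpl5 and 0.13 for Rpl11, the latter above the median of the members.

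Rpl15 was the member with the smallest p of all, and it was lower in the high group. It encodes a protein of the large subunit's core and lies on chromosome 14 from 18267823 to 18271391 (minus strand). Its level was 32.8, 44.4 and 42.7 in the high group against 49.1, 50.5 and 51.7 in the low group. Every high library was below every low library, with a log2 difference of -0.34 (SE 0.109; limma adjusted p = 0.557), and high library 1 was the farthest from the low group. Without that library the log2 difference was -0.21. Rpl7a was lower by 0.23 on the log2 scale with wide overlap, at 15.9, 26.9 and 30.7 FPKM against 29.2, 22.8 and 32.4. Without high library 1 its log2 difference was 0.0448, so the direction rested on that library.

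Among small-subunit genes, Rps15 and Rps6 had separate groups. Rps15, on chromosome 10 from 80292453 to 80294114, had 472.2, 473.8 and 473.1 FPKM in the high group against 395.9, 451.2 and 415.9 in the low group. The high libraries were almost equal to each other and the low libraries were spread below them (log2 difference 0.17, SE 0.0765; limma adjusted p = 0.596). Rps6, the substrate of the S6 kinases whose phosphorylation is used as a marker of neuronal activity and mTORC1 output, had 99.9994, 99.1 and 107.1 FPKM against 99.0, 98.5 and 89.4. Its groups were separate by a margin far below the spread within either group, between high library 2 and low library 1, and its log2 difference was 0.09 (SE 0.0685; limma adjusted p = 0.706). Rps2, a protein at the entry of the mRNA channel, had a lower mean in the high group, at 96.3, 96.3 and 105.2 FPKM against 111.3, 104.3 and 105.8. Here high library 3 lay inside the low range, and the log2 difference was -0.11 (SE 0.0654; limma adjusted p = 0.656). Rps13 had 20.97, 21.5 and 19.3 FPKM against 18.03, 27.3 and 25.1, with low library 1 below every other library. Rpsa, a small-subunit protein also known as the laminin receptor, had 97.9, 98.2 and 109.3 FPKM against 94.5, 101.8 and 91.4, with overlapping groups.

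**Figure D5:**
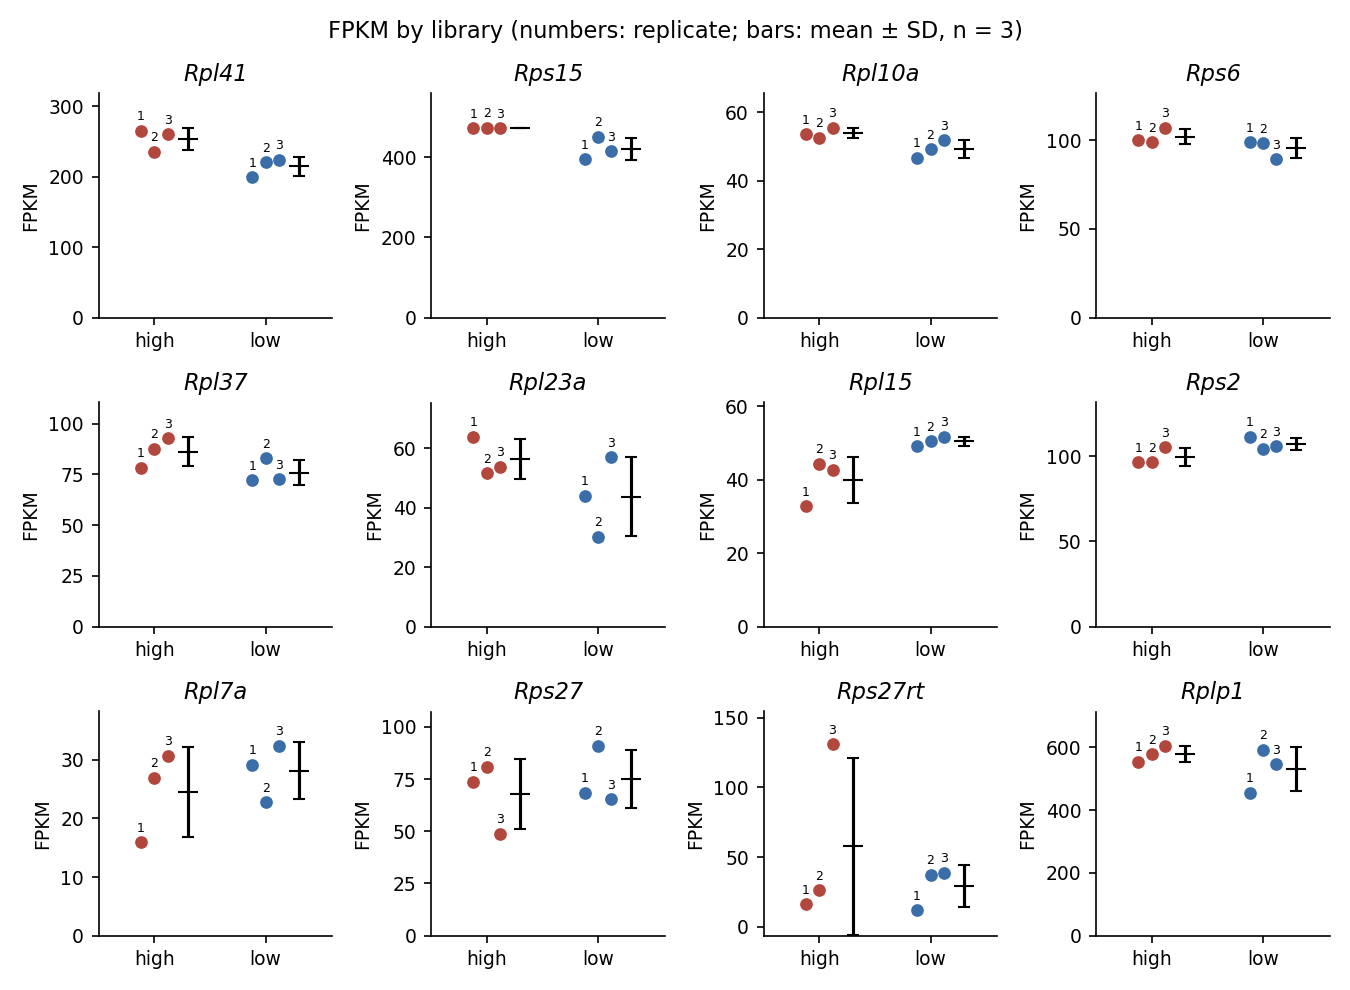
FPKM of 12 ribosomal protein genes in each library (points numbered by replicate, high in red, low in blue) with the mean ± SD of each group (n = 3). Rpl41, Rps15, Rpl10a and Rps6 have every high library above every low library, Rpl15 has the reverse, and Rps27rt stands at 130.9 FPKM in high library 3.

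Of the 5 most abundant members, Rplp1, Rps3a1 and Rps29 overlapped between the groups. Rplp1 and Rplp2 form the acidic stalk that recruits elongation factors, anchored by Rplp0. Rplp1 had 553.4, 577.1 and 604.8 FPKM in the high group against 455.3, 592.3 and 545.4 in the low group, Rplp2 had 28.1, 39.996 and 30.7 against 25.6, 36.01 and 28.4, and Rplp0 had 88.8, 91.7 and 86.6 against 84.7, 85.8 and 89.0. Rplp0 had the narrowest spread of all members, with a ratio of 1.08 between its highest and lowest library. Rps3a1 had 213.0, 222.4 and 246.3 FPKM against 225.1, 246.0 and 207.3 (log2 difference 0.0076). Rps29, a zinc-binding protein of the small subunit's head, had 210.9, 209.5 and 247.5 against 172.5, 243.6 and 221.9. The stalk partners differed widely from each other in listed level, and low library 1 was the lowest library for Rplp1, Rplp2, Rplp0 and Rps29.

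The proportions within paralog pairs overlapped between the groups. Rpl22 and its homologue Rpl22l1, which can replace it in the ribosome, stood at 21.8, 23.2 and 25.2 against 23.2, 25.0 and 21.9 FPKM, and at 8.10, 7.86 and 10.8 against 6.82, 11.3 and 8.53 FPKM. The ratio of Rpl22l1 to Rpl22 was 0.372, 0.338 and 0.428 in the high group against 0.294, 0.452 and 0.390 in the low group (exact 2-sided permutation p = 1). Rpl7 had 58.9, 66.7 and 62.1 FPKM against 61.5, 67.3 and 62.2, and its pre-ribosomal relative Rpl7l1 had 15.2, 16.5 and 15.1 against 13.5, 15.1 and 15.2. Rpl7l1 thus had 0.257, 0.248 and 0.243 of the FPKM of Rpl7 in the high group against 0.220, 0.224 and 0.244 in the low group (exact 2-sided permutation p = 0.2). Rps27l, a p53-induced relative of Rps27, had 7.13, 6.71 and 7.22 FPKM against 5.63, 7.08 and 6.93. These 3 ratio comparisons, with that of Rps27l to Rps27 at an exact permutation p of 0.5, had overlapping groups, and with 3 against 3 none could fall below 0.1 before adjustment.

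Near-identical gene copies limit what a single member's value means. Ribosomal protein genes have many retrocopies: 77 of the 81 members had at least 1 other annotated gene that matched at least 80% of their coding sequence at 95% identity or more, with a median of 5 and up to 57 such copies, for Rpl21. For 17 members a gene with such a copy in its transcripts was itself listed. The sources used here do not say how the authors' counting divided shared reads, so values of these members are uncertain. Rps27 and the intronless copy Rps27rt show this most plainly, with coding sequences matched at 100% identity. Their start regions are printed from 30 bases before to 15 bases after the annotated start, with the bases that both share at the end of the window in capitals.
Rps27, chr3:90213634-90213678, minus strand: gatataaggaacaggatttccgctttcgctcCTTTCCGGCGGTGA
Rps27rt, chr9:114982725-114982769, minus strand: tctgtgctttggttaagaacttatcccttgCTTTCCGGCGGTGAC
The capitals begin a run of 38 identical bases, and the bases before it differ. Rps27rt, singled out after its values were seen, had 16.1, 26.3 and 130.9 FPKM in the high group against 11.9, 37.3 and 38.7 in the low group, and Rps27 had 73.7, 81.0 and 48.8 against 68.4, 91.0 and 65.4. High library 3 thus had the highest Rps27rt and the lowest Rps27. The ratio of Rps27rt to Rps27 was 2.68 there and 0.174 to 0.591 in the other 5 libraries. Their summed FPKM was 89.8, 107.3 and 179.7 against 80.3, 128.3 and 104.1.

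Most members varied little between libraries. The ratio of the highest to the lowest library had a median of 1.26 over members and 1.28 over all tested genes, and it reached 1.5 in 12 of 80 tested members (15%), against 22.6% of all tested genes. The 12 included Rps27rt (10.996), Rpl23a (2.11, with 19 near-identical copies), Rpl7a (2.03, with 32) and Rps27 (1.86, with 4). Other members with many copies had lower ratios, such as Rps2 (1.16, with 23) and Rpl29 (1.26, with 28). A relation of the ratio to the number of copies was not tested. With the members that have a listed copy left out, 55 of 63 members were higher and the median log2 difference was 0.08.

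Ribosomal protein transcripts are short, and the median annotated length of the members was 696.5 bases, against 2225 over tested genes, while GC content was alike (51.3% against 51.0%). In the shortest of 3 nearly equal parts of the members by length (up to 577 bases), 25 of 27 were higher and the median log2 difference was 0.12. In the middle part it was 25 of 27 with 0.07, and in the longest part, from 860 bases, 19 of 26 with 0.07. Across the 80 members, which are not independent and share each library, the Spearman rho of the deviation with length was 0.437 in low library 1, and it lay between -0.191 and 0.0414 in the other 5. With a GC and length trend over 11924 genes taken out of each library, 64 of 80 members were higher with a median of 0.06 (all genes 52.9% and 0.0069).

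Other genes of protein synthesis and the respiratory chain were counted in the same way, and limma called 0 of them over all genes. The differences between lists were not tested. Mitochondrial ribosomal protein genes were higher in 48 of 77 (median 0.05) and genes for respiratory chain subunits encoded in the nucleus in 62 of 81 (median 0.05). With the GC and length trend taken out, the median of the mitochondrial ribosomal protein genes (50 of 77 higher) was 0.0557 and that of the cytosolic genes was 0.0560, while respiratory chain genes had 0.0236 (50 of 81 higher). Translation initiation factors were higher in 20 of 42 tested genes (median -0.0059), elongation factors in 7 of 11 (median 0.0203) and ribosome biogenesis factors in 32 of 50 (median 0.0181). Of other transcripts known or proposed to carry a TOP motif, 11 of 20 were higher (median 0.0240). This list overlaps the lists just before it, in genes such as Eef1a1, Eef1g, Eif4b and Npm1. Fau, which encodes a ubiquitin-like protein fused to the small-subunit protein S30, had 126.5, 129.8 and 138.9 FPKM in the high group against 110.8, 124.0 and 122.4 in the low group, without overlap (log2 difference 0.15, SE 0.0720; limma adjusted p = 0.605). Nap1l1, a histone chaperone, had 32.2 ± 1.74 against 34.9 ± 3.42 FPKM with overlap (SD, n = 3 each). Rack1, a scaffold on the small subunit, had 28.8 ± 0.589 against 28.0 ± 0.651 (SD, n = 3 each). The initiation factor genes with the smallest p, Eif1a (14.1 ± 0.984 against 15.8 ± 0.613 FPKM), Eif3j1 (4.16 ± 0.222 against 4.74 ± 0.0996) and Eif3l (17.2 ± 0.767 against 18.8 ± 0.201), each had separate groups with lower values in the high group. Among elongation factors Eif5a2 had separate groups, at 6.03 ± 0.950 against 6.93 ± 0.267 FPKM, lower in the high group. The neuronal form Eef1a2 had 495.0 ± 56.4 against 453.7 ± 11.7 FPKM with overlap, and Eef1g had 92.9 ± 3.40 against 86.9 ± 5.56. The nucleolar protein genes Nop56 (23.2 ± 0.621 against 21.5 ± 1.29) and Rrp1 (113.8 ± 13.1 against 102.5 ± 3.49) had higher means, with overlap for Nop56 only, and Utp4 had separate groups with lower values (8.55 ± 0.438 against 9.43 ± 0.346).

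The mTORC1 list holds genes of this complex, which acts on TOP transcripts, and of its regulators and effectors. It also holds the transcription factor genes Myc, Mycn and Max. Of its 31 tested genes 13 were higher and 18 lower (median -0.0179). At an unadjusted limma p under 0.05 there were 2 genes, both lower (background 4.27%). Separate groups were found in 4 genes, all lower (background 7.61%). Rragd, a Rag GTPase that recruits mTORC1 to lysosomes, had 17.2, 20.9 and 16.4 FPKM in the high group against 23.5, 23.3 and 22.3 in the low group (log2 difference -0.33, SE 0.0920; limma adjusted p = 0.548). Rraga, its partner family member, had 53.9, 49.8 and 48.0 against 56.1, 58.0 and 59.4 (log2 difference -0.19, SE 0.0651; limma adjusted p = 0.564). Rps6kb1, an S6 kinase gene, had 4.05, 3.15 and 4.31 against 4.47, 4.74 and 4.77 (log2 difference -0.23, SE 0.103, limma adjusted p = 0.596). In these 3 genes every high library was below every low library, and none passed over all genes. The other S6 kinase gene of the list, Rps6kb2, was at a higher level with overlapping groups. It had 24.1, 23.0 and 26.2 FPKM in the high group against 23.9, 23.3 and 24.0 in the low group.

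The authors' deposited table gives 4 members an unadjusted p under 0.05, among them Rpl41 (0.0308), Rps15 (0.0323) and Rpl15 (0.0467), where 975 of 13170 genes (7.4%) have one. Of the markers used to check the tissue, all 14 neuronal genes were listed, with a summed FPKM between 1337 and 1543. Of 13 medial amygdala markers 11 were listed, with Ecel1 at a mean of 17.4 FPKM, Lhx6 at 8.56 and Esr1 at 0.857, while Cyp19a1 and Avpr1a were not analysed here. Of 12 markers of cortical excitatory neurons 11 were listed, with Neurod6 at 20.004 and Tbr1 at 12.6, so the markers of both named regions were present.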

How the data were processed

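The authors deposited a table of gene FPKM for 6 libraries, in which 0 values are at 0 and the lowest mean is 0.500. The tools were fastp, HISAT2 and StringTie and the build GRCm38, per the submitters' processing notes, which name no versions. The deposited table also holds the authors' log2 fold change and unadjusted p-value, and the sources used here do not name the test behind them. Absolute depth is unknown, and relative depth came from the most common ratio between libraries over 1428 genes under 1.5 FPKM in every library. FPKM carry no counts, so log2(FPKM + 1) was fitted with limma 3.58.1 in R 4.3.3 (variance trend, 2-sided, Benjamini-Hochberg at 0.05) over 12026 genes with a mean of at least 1 FPKM. Fits were checked on simulated data. Single values used exact permutation tests.

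Length, GC content and copies (BLAST 2.17.0) came from GENCODE on GRCm38. Named members are the 5 with the highest FPKM, the 10 higher and 5 lower with the smallest p, paralog pairs and Rpl24; other translation lists give 3 genes each. Others (Rps6, Rps27rt, Rplp0, Rplp2, Rpl3, Rpl5, Rpl11, Rpsa and, of the mTORC1 list, Rps6kb2) were named for their role or after their values were seen. The members and lists were chosen with earlier results of these data known. Alternatives were other pseudocounts, filters, scalings, variance models, a replicate block, a GC and length trend and left-out libraries. Values of a few genes that this rule names are not reported here.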

Additional observations from a re-analysis of the deposited data

How the results depend on the processing

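Under every alternative 0 genes passed over all genes by limma or by the authors' p-value after adjustment, with 361 to 1567 genes at an unadjusted p under 0.05. The median of the ribosomal protein genes stayed above 0 (0.0406 to 0.137 with 1 library left out, and 59 to 75 members higher), except with low libraries 1 and 3 left out, where it was -0.0383 with 25 members higher. Separate groups were found in 8 to 35 members with 1 library left out, in 32 with low libraries 1 and 3 left out and in 38 with high library 2 and low library 2 left out; fewer samples make separation easier, and no further cause was tested. Some named members changed sign, both those with differences near 0 and larger ones such as Rpl7a (-0.23), Rpl26 (0.17), Rps27 (-0.16) and Rplp1 (0.13). With array weights Rps3a1 was -0.0193 and Rpl22 -0.0263. With 1 library left out, the log2 difference ran from -0.407 to 0.0448 for Rpl7a, -0.0717 to 0.0163 for Rpl7, -0.0530 to 0.0696 for Rps3a1, -0.0668 to 0.181 for Rps29, -0.301 to 0.0590 for Rps27, -0.0497 to 0.0524 for Rpl22 and -0.138 to 0.188 for Rpl22l1. With low libraries 1 and 3 left out, the values were -0.0351 for Rplp1, -0.117 for Rps3a1, -0.134 for Rps29, -0.0045 for Rpl26, 0.0515 for Rpl7a, -0.0920 for Rpl22, -0.322 for Rpl22l1 and -0.0107 for Rps27l. In all, 23 values of named members changed sign and 438 did not. The 438 include settings that cannot change a member's difference, namely other filters, the replicate block and the fit without a variance trend. The cause of these changes was not tested.

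With the replicate number as a block, the median of the members was 0.0804 and 69 were higher, as without it. As each group holds every replicate number, the block cannot change these values, only the standard errors. With the block 743 genes had an unadjusted limma p under 0.05, against 1009 without it. Same-numbered libraries had correlations of deviations of -0.0939, -0.206 and -0.156, and none correlated best with its own number. Effects that span a whole library enter these deviations from the group mean, so they cannot show whether the animals were paired. Without counts, the precision of low FPKM cannot be given.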

Other observations

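The table also lists 5 ribosomal protein pseudogenes whose symbol carries -ps, which the choice of members left out. Listed copies under other symbols are not counted here. Rps12-ps3 had 15.0, 12.6 and 13.4 FPKM in the high group against 10.5, 10.4 and 10.7 in the low group, without overlap (log2 difference 0.34, SE 0.0754; limma adjusted p = 0.496). Its parent Rps12, identical to it over the matched coding sequence, had a log2 difference of 0.06 with overlap. Rpl36a-ps1 had 1.56, 1.99 and 2.16 FPKM against 1.14, 1.12 and 1.47, also without overlap (log2 difference 0.37, SE 0.117; limma adjusted p = 0.553), and its level relative to Rpl36a was 0.0552, 0.0565 and 0.0637 against 0.0428, 0.0317 and 0.0546. The other 3, Rpl9-ps6, Rpl7a-ps5 and Rpl10-ps3, overlapped between the groups. These are single-copy readings of families with shared sequence, and how reads were divided within a family was not tested.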
